A study of Mus musculus with 70 samples.

Results

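ST2- CD44hi regulatory T cells (Tregs) of visceral adipose tissue (VAT) were compared with ST2+ CD44hi Tregs of the spleen. The members were chosen by label and by the total of each library's counts: they are the libraries whose labels named these populations and whose column of the count table summed to more than 1000000 counts. All 5 libraries of each group met this minimum, which gave 10 libraries of the 70 in the series. The column total is the single measured value that the choice used. The comparison crosses the tissue and the receptor, and asks how far Tregs that live in fat without ST2 resemble lymphoid Tregs that carry it.

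Cells came from 5 male Foxp3YFP-cre mice, aged 16.6, 17.1, 17.4, 18.1 and 18.6 weeks, which are called mice 1 to 5 here. Each mouse gave both populations. This allele places a YFP and Cre fusion under the Foxp3 locus, so YFP marks Foxp3-expressing cells, and no group received a treatment. Live CD4+ YFP+ cells that lacked CD8 and CD11b were gated on ST2 and CD44, sorted into lysis buffer and amplified with a full-length cDNA kit. VAT was digested with enzymes and not enriched, while spleen was dispersed mechanically and CD4 T cells were enriched on magnetic beads before sorting, so tissue and handling cannot be told apart in this comparison. Lungs were digested as VAT was and enriched as spleen was, and lung ST2- CD44hi values are given below for this reason. The spleen ST2+ libraries were each made from 220 cells, and the VAT ST2- libraries of mice 1 to 5 from 220, 93, 192, 118 and 135 cells, as the labels give them. The paper's methods give 220 cells for each Treg subset, and the numbers of the labels are used here. Total counts ran from 1532998 to 2759926 in VAT ST2- (median 2010831) and from 1852476 to 2625746 in spleen ST2+ (median 2451402). The VAT ST2- library of mouse 2, made from the fewest cells, had 11877 detected genes, and the other 9 libraries had between 14354 and 15602.

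ST2 is the receptor for IL-33, an alarmin held in the nuclei of stromal and epithelial cells, and it is encoded by Il1rl1. Many Tregs of VAT are known to carry ST2, to need IL-33 and to depend on the nuclear receptor PPARγ and the factors BATF, IRF4 and GATA3. ST2+ Tregs of lymphoid organs are thought to include cells on the way to non-lymphoid tissues.

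The levels of Il1rl1 (ENSMUSG00000026069, GRCm38 chromosome 1, 40429570 to 40465415, + strand) followed the gate. In counts scaled to 1000000 per library (CPM), VAT ST2- libraries of mice 1 to 5 held 8.51, 10.2, 18.7, 22.9 and 12.2, and spleen ST2+ libraries held 228, 274, 322, 270 and 312. The groups did not overlap, and VAT ST2- was lower in all 5 mice (log2 fold change -4.29, SE 0.46, adjusted p 3.2e-10). The mean in VAT ST2- was 14.5 ± 6.05 CPM (SD, n = 5), above the 1.10 ± 1.36 of spleen ST2- CD44hi Tregs (SD, n = 5, log2 fold change 3.70, SE 0.73, adjusted p 0.00030) and below the 1221 ± 118 of VAT ST2+ CD44hi Tregs (SD, n = 5). Foxp3, the lineage factor of Tregs, was at 128 to 188 CPM in VAT ST2- and at 136 to 222 CPM in spleen ST2+. Cd3e and Cd4, which mark CD4 T cells, had reads in each of the 10 libraries.

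Markers of cells outside the sort were counted in the same libraries. The 14 macrophage and monocyte markers summed to 170, 135, 340, 51.8 and 174 CPM in VAT ST2- of mice 1 to 5 and to between 4.81 and 22.4 CPM in spleen ST2+, and 4 of the 14 were higher in VAT ST2- by at least 1.5-fold with an adjusted p of at most 0.05, as were 2.72% of all tested genes. Also higher were 4 of the 10 fibroblast markers, 2 of the 11 dendritic cell markers and, among those with enough reads to be tested, 1 of 5 B and plasma cell markers (Jchain) and 1 of 4 adipocyte markers (Fabp4). The fibroblast markers summed to 282 and 490 CPM in VAT ST2- of mice 1 and 3. Their sums in mice 2, 4 and 5 were 58.1, 39.6 and 46.8 CPM, inside the 38.1 to 82.8 CPM of spleen ST2+. Without the VAT ST2- library of mouse 3 the calls of Jchain, Fabp4, Apoe and the dendritic cell gene Siglech were lost (adjusted p 0.39, 0.10, 0.21 and 0.051). The highest level of Siglech, 158 CPM in mouse 5, remained in that fit. Apoe led the macrophage and monocyte markers with a mean of 47.0 CPM in VAT ST2-, and Csf1r and Mrc1 were at 0 in all 5 VAT ST2- libraries. The sum of mouse 2 was made of Tyrobp (71.7 CPM), Fcer1g (55.3 CPM) and Apoe (8.20 CPM), with the other 11 markers at 0, and NK cells also express Tyrobp and Fcer1g. This library held 36.2 CPM of Ncr1, 17.1 CPM of Klrb1c and 44.4 CPM of Klrd1, genes of NK cells, while in the other 9 libraries Ncr1 was at 0, Klrb1c at no more than 0.396 CPM and Klrd1 at no more than 3.94 CPM. The library of mouse 3 stood apart. It held 586 CPM of the 9 endothelial markers, 490 CPM of the 10 fibroblast markers and 2863 CPM of the 10 B and plasma cell markers, against at most 146, 282 and 861 CPM in the other 4 VAT ST2- libraries. The B and plasma cell sum was led by Ighm in both groups, with means of 775 CPM in VAT ST2- and 811 CPM in spleen ST2+. The plasma cell gene Jchain was at 868 CPM in this library and at 0 to 1.37 CPM in the other 4. The library of mouse 5 held 1212 CPM of the 11 dendritic cell markers, with Siglech, a marker of plasmacytoid dendritic cells, at 158 CPM, and Siglech was at 67.4 CPM in mouse 3 and at 0 in the other 8 libraries. The adipocyte genes Adipoq and Lep were at 0 in all 5 VAT ST2- libraries, and Fabp4, which endothelial cells and macrophages also express, was at 202 CPM in mouse 3 and at most 7.12 CPM in the other 4. In a fit without the VAT ST2- libraries of mice 3 and 5, chosen after the marker sums were seen, 295 genes were called in place of the 489 described next. The part of these cells in the other results was not tested.

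**Figure D1:**
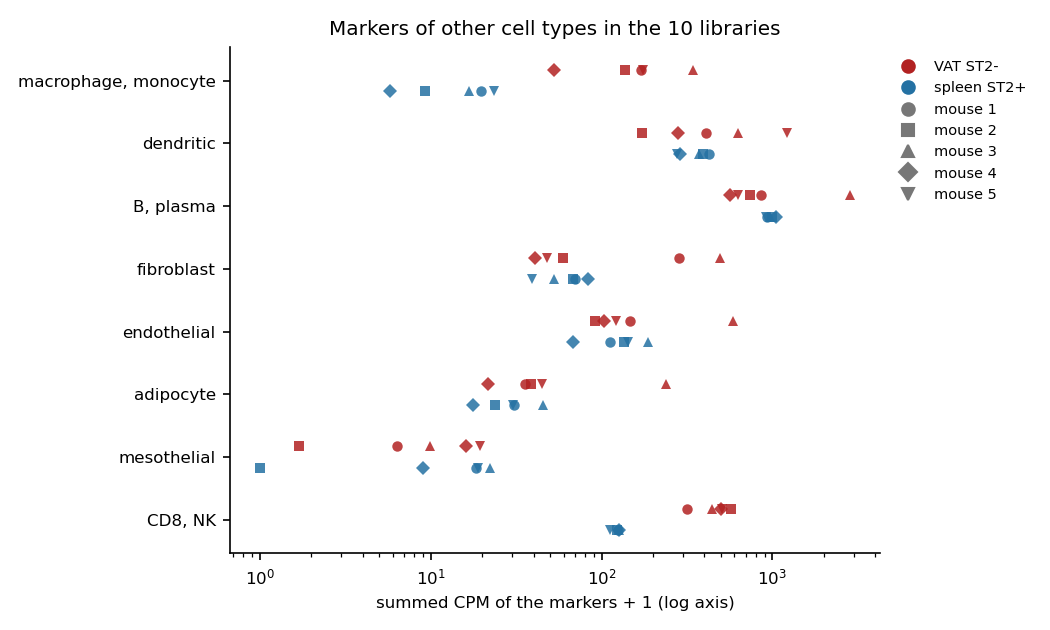
Summed CPM of markers of other cell types plus 1 (log axis) in each VAT ST2- (red) and spleen ST2+ (blue) library, with 1 symbol per mouse. Macrophage and monocyte sums lay between 51.8 and 340 CPM in VAT ST2- and between 4.81 and 22.4 CPM in spleen ST2+, and mouse 3 was highest in VAT ST2- for B and plasma, fibroblast, endothelial and adipocyte markers.

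Of 13179 protein-coding genes tested, 489 (3.71%) differed between VAT ST2- and spleen ST2+ Tregs with a fold change of at least 1.5 and an adjusted p of at most 0.05. These differentially expressed genes (DEGs) were 358 genes higher in VAT ST2- (2.72%) and 131 lower (0.994%). The share that was higher, 73.2% here, was 58.9% with limma voom and quality weights (475 higher and 332 lower), 65.8% with DESeq2 (428 and 222) and 88.0% when the fold change was tested against 1.5 (132 and 18). The median fold change was 3.07 among the genes higher in VAT ST2- and 2.20 among those lower, and 145 genes were higher and 36 lower by 4-fold or more. In 387 of the 489 DEGs the 5 mice moved in one direction, and in 302 the 5 libraries of one group did not overlap the 5 of the other. Of all tested genes, 692 (5.25%) did not overlap, 359 of them higher (2.72%) and 333 lower (2.53%). The tests resolved a limited part of the transcriptome. The 95% confidence interval lay inside a 1.5-fold change for 2336 genes (17.7%), so most genes outside the DEGs were neither shown to differ nor bounded near equality.

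The other comparisons of the 4 VAT and spleen CD44hi populations, which share libraries with this one, are given beside it. Keeping ST2 absent and changing the tissue gave 786 DEGs (5.96%, VAT ST2- against spleen ST2-), and keeping ST2 present gave 1491 (11.3%, VAT ST2+ against spleen ST2+). Within VAT, ST2+ and ST2- Tregs differed by 413 DEGs (3.13%), and within spleen by 46 (0.349%). These counts were 392 and 221 with limma and 605 and 100 with DESeq2. The 2 comparisons of VAT ST2- Tregs with spleen share the VAT libraries, and their counts were not tested against each other. Among the 13 other groups of the series, VAT ST2- Tregs had the fewest DEGs against lung ST2+ CD44hi Tregs (101, 0.766%), followed by lung ST2- (213, 1.62%), colon ST2- (229, 1.74%) and colon ST2+ (288, 2.19%). VAT ST2+ came next (413), then spleen ST2+ (489) and blood ST2+ (646, 4.9%). Counts were highest against the ST2- CD44lo Tregs of lungs (2079, 15.8%) and spleen (2160, 16.4%) and the ST2- (2379, 18.1%) and ST2+ (2759, 20.9%) CD44hi Tregs of skin. Spleen ST2+ Tregs had the fewest DEGs against spleen ST2- (46), then lung ST2- (455, 3.45%) and VAT ST2- (489). Blood ST2+ and colon ST2+ had 4 and 3 kept libraries and every other group 5, so these counts also follow the number of libraries and their spread.

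**Figure D2:**
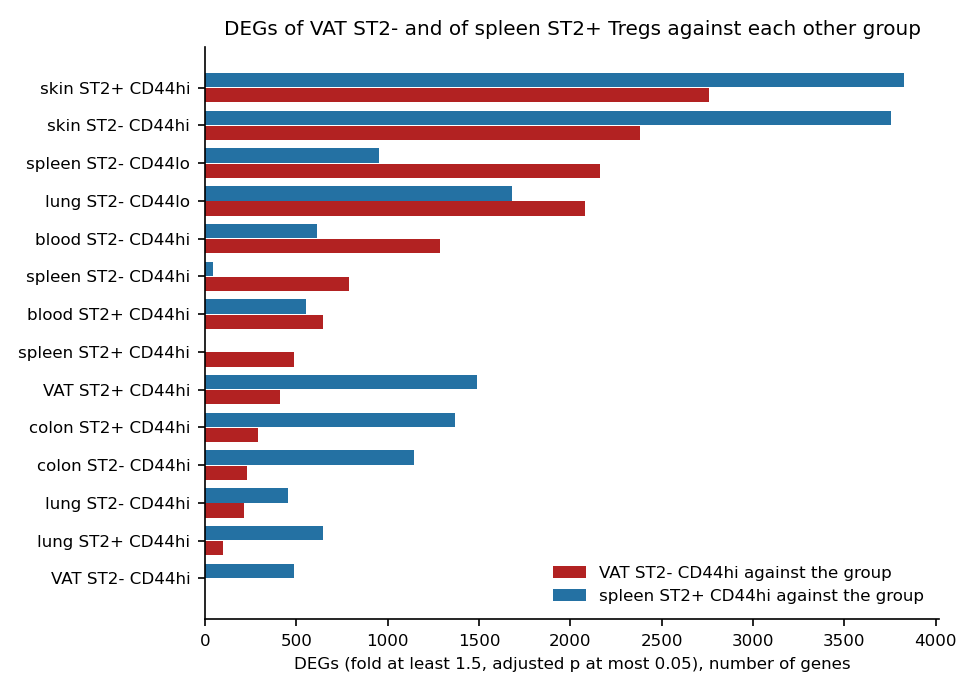
Number of DEGs (x axis, genes) of VAT ST2- CD44hi Tregs (red) and of spleen ST2+ CD44hi Tregs (blue) against each other group. The red bar at spleen ST2+ and the blue bar at VAT ST2- are the same comparison, with 489 DEGs, and the shortest red bar is that for lung ST2+ with 101.

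VAT ST2- libraries varied more among themselves than spleen ST2+ libraries did. As a description over the tested genes, the median Spearman's rho between libraries of different mice was 0.910 within VAT ST2- (10 pairs, 0.875 to 0.938) and 0.957 within spleen ST2+ (10 pairs, 0.939 to 0.963). Between the groups it was 0.913 (20 pairs, 0.863 to 0.939), so a VAT ST2- library ranked its genes about as much like a spleen ST2+ library as like another VAT ST2- library. The rho to VAT ST2+ was 0.885 and to spleen ST2- 0.906. The points share mice and library depth, and all groups share the genes at the top of the ranking. The VAT ST2- pools held 93 to 220 cells and the spleen ST2+ pools 220 each. The part of cell number in these values was not tested.

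The study named 8 genes that separate ST2+ from ST2- Tregs in most tissues. It found Il1rl1, Gata3, Klrg1, Rln3, Ptpn13, Rab4a and Lyn higher with ST2, and Tbc1d4 lower. Here Il1rl1 was the single DEG of the 8, lower in VAT ST2- (0.994% of all tested genes were lower). The median log2 fold change, taken over genes of both directions, was -0.40. The study chose this list on these samples, so its members are no independent evidence. GATA3, a factor of type 2 lymphocytes, had mRNA at 196, 193, 204, 240 and 192 CPM in VAT ST2- of mice 1 to 5 and at 282, 282, 226, 282 and 238 CPM in spleen ST2+. All 5 mice were lower in VAT ST2-, but the difference was small and missed the threshold (log2 fold change -0.35, 95% confidence interval -0.62 to -0.09, adjusted p 0.12). Both populations lay above the 125 ± 21.3 CPM of spleen ST2- Tregs (SD, n = 5), and VAT ST2- did so as a DEG (log2 fold change 0.71, SE 0.13, adjusted p 0.00013).

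Klrg1, an inhibitory receptor of terminally differentiated lymphocytes, split the VAT ST2- libraries. Mice 1 to 5 held 18.8, 109, 392.2, 544 and 540 CPM, against 518, 378, 486, 528 and 498 CPM in spleen ST2+. Mice 3 to 5 thus reached spleen ST2+ levels, while mouse 1 lay below the mean of spleen ST2- Tregs (50.5 CPM), and the fold change between the groups had a wide interval (log2 -0.59, 95% confidence interval -1.54 to 0.36, adjusted p 0.56). Tbc1d4, which regulates glucose transporter traffic and was lower in VAT ST2+ (17.1 CPM), ran the other way, with 427, 221, 87.6, 156 and 70.7 CPM in VAT ST2- of mice 1 to 5. Lyn, a Src family kinase, was lowest in mouse 1 (12.8 CPM) and between 39.6 and 109 CPM in the others. Rln3, encoding relaxin 3, was at 71.8 to 131 CPM in VAT ST2- and 99.0 to 136 CPM in spleen ST2+ (log2 fold change -0.12, 95% confidence interval -0.79 to 0.56). For Ptpn13, a phosphatase, and Rab4a, a GTPase of recycling endosomes, the log2 fold changes were -0.45 and -0.56, with intervals from -1.01 to 0.11 and from -1.80 to 0.69. In lung ST2- Tregs, 4 of the 8 genes were lower than in spleen ST2+ (0.933% of tested genes were lower in this comparison).

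Pparg, the regulator of the VAT Treg programme, was at 19.9, 0, 49.7, 79.1 and 45.3 CPM in VAT ST2- and at 41.4, 18.02, 12.3, 23.0 and 12.8 CPM in spleen ST2+. The ranges overlapped, and the fold change was not resolved (log2 0.85, 95% confidence interval -1.05 to 2.75). The library at 0 was that of mouse 2, made from 93 cells. Spleen ST2- Tregs had a mean of 0.360 CPM and VAT ST2+ Tregs of 268 CPM, so VAT ST2- and spleen ST2+ both stood between them. The other receptors of the IL-1 family did not pass the test either. Il18r1 and Il18rap, which form the IL-18 receptor, were at 174 to 484 and 63.8 to 175 CPM in VAT ST2-, and at 155 to 270 and 56.4 to 171 CPM in spleen ST2+. Il1rap, the shared co-receptor of ST2, was at 15.71 to 49.97 and 16.9 to 44.4 CPM.

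**Figure D3:**
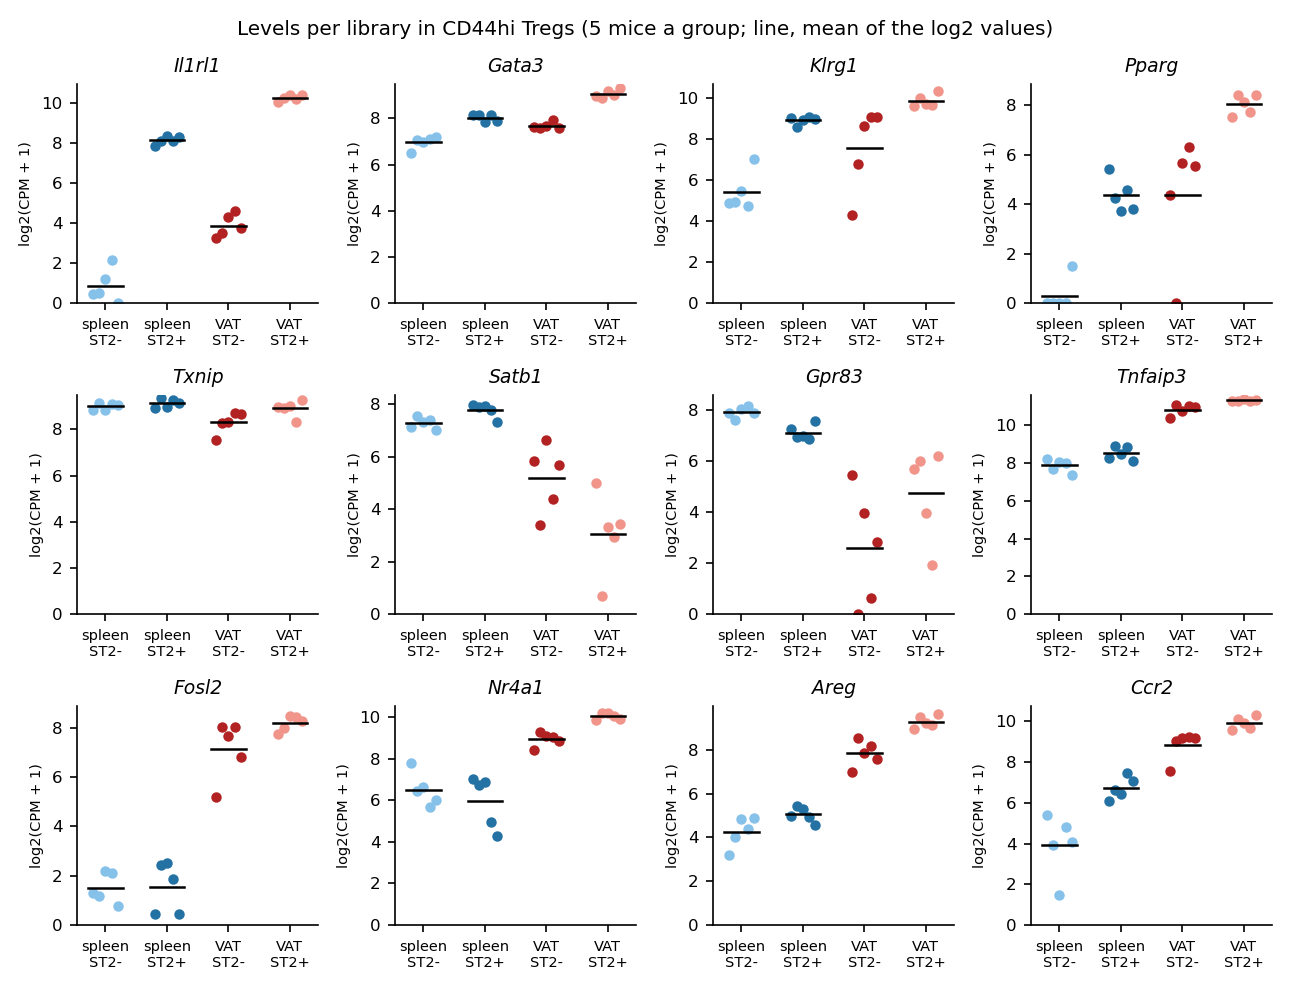
Levels of 12 genes on the log2(CPM + 1) scale in spleen ST2-, spleen ST2+, VAT ST2- and VAT ST2+ CD44hi Tregs, with 1 point per mouse, mice 1 to 5 from left to right, and a line at the mean of the log2 values. VAT ST2- lay far below spleen ST2+ for Il1rl1 and overlapped it for Gata3, Klrg1 and Pparg, while Tnfaip3, Fosl2, Nr4a1, Areg and Ccr2 did not overlap and were higher in VAT ST2-.

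How much of the difference that ST2 marks in the spleen is present in VAT Tregs without ST2 was asked with 2 comparisons that share no library. Spleen ST2+ Tregs had 45 genes higher than spleen ST2- Tregs (0.341% of tested genes), and VAT ST2- Tregs had 848 genes higher than blood ST2- CD44hi Tregs (6.43%). The lists shared 30 genes, which is 66.7% of the spleen list and 3.54% of the VAT list. With limma the shared genes were 54 of a spleen list of 135, a smaller share, and with DESeq2 56 of 82. None of the other 15 genes was lower in VAT ST2- than in blood ST2- (3.34% of tested genes were). The median log2 fold change of the 45 genes in VAT ST2- against blood ST2- was 1.92, with 0.04 for all tested genes. VAT was digested and blood was not, so tissue and handling cannot be told apart in the VAT list. Among the shared genes were Klrg1 (log2 fold change 4.67, SE 0.60, adjusted p 2.8e-08, in VAT ST2- against blood ST2-), Gata3 (0.61, SE 0.14, adjusted p 0.0011), the chemokine receptor genes Ccr2, Ccr4 and Cxcr6, the cell cycle inhibitor Cdkn1a, the mucin Muc1 and Id2, an inhibitor of E proteins. Among the 15 that were not shared were Il1rl1, Pparg, Il9r, encoding the IL-9 receptor, and Il7r, encoding the IL-7 receptor.

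Set directly against spleen ST2+, the 45 genes had a median log2 fold change of 0.42 in VAT ST2-. Of them 14 were higher, 2 lower and 29 not DEGs (2.72% of all tested genes were higher and 0.994% lower). The spleen ST2+ libraries chose these genes, so the values are a description. Il1rl1 and Mreg, encoding melanoregulin, were the 2 genes lower, and the Mreg call was lost without the spleen ST2+ library of mouse 1 (adjusted p 0.066). Mreg had no read in the 5 VAT ST2- libraries and was at 11.7, 0.487, 0.396, 4.27 and 0 CPM in spleen ST2+, a mean of 3.36 CPM. The genes higher included Anxa1, Fgl2, Metrnl, encoding a secreted meteorin-like protein, and Crem, encoding a factor that binds cAMP response elements. Crem was at 244, 622, 404, 523 and 391.8 CPM in VAT ST2- and at 91.8, 170, 101, 127 and 111 CPM in spleen ST2+. For the adaptor gene Nck2, the GTPase gene Arl5a and the IL-10 receptor gene Il10ra the means were close, at 82.8 and 81.9, 142 and 146, and 343 and 350 CPM. Their 95% intervals of the log2 fold change ran from -0.47 to 0.50, from -0.52 to 0.43 and from -0.57 to 0.51.

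**Figure D4:**
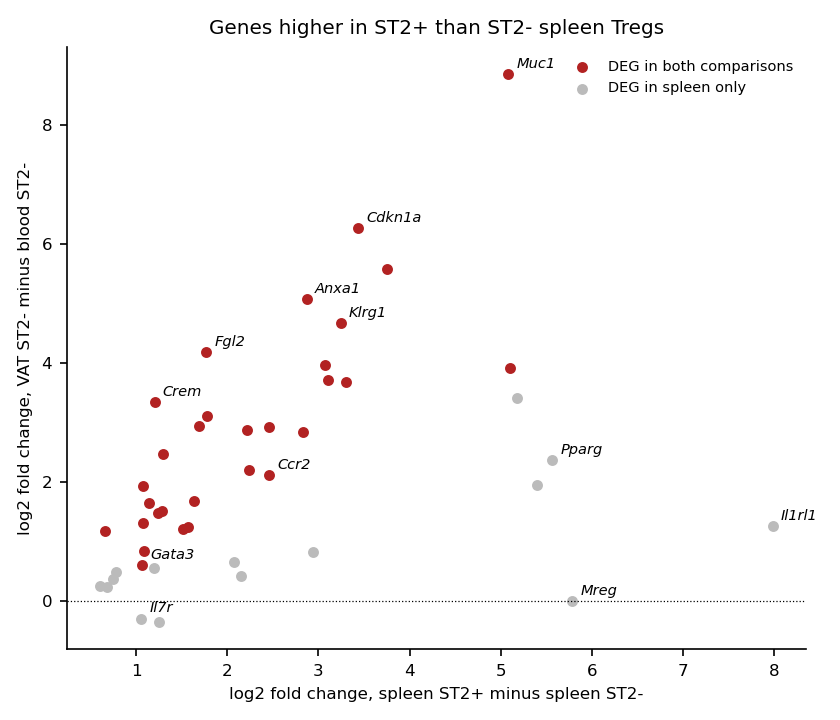
The 45 genes higher in ST2+ than ST2- spleen CD44hi Tregs, with the log2 fold change in spleen (x axis) and that of VAT ST2- against blood ST2- CD44hi Tregs (y axis). Red points are the 30 genes that were also DEGs on the y axis, and Il1rl1, Mreg and Pparg are among the 15 grey points that were not.

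Lists from other tissues were then followed in this comparison. Genes higher in ST2- CD44hi Tregs of lungs, colon and skin alike than in those of blood numbered 265, and 111 of them (41.9%) were higher in VAT ST2- than in spleen ST2+, with none lower and a median log2 fold change of 0.74 (2.72% of tested genes were higher and 0.994% lower). Of 28 genes lower in those 3 tissues than in blood, 8 were lower and none was higher, with a median of -0.66. The medians over all tested genes were 0.00. Lungs, colon and skin were digested with enzymes and blood was not, so tissue and handling cannot be told apart in these 2 lists either. The genes higher in ST2+ than ST2- Tregs in at least 2 of blood, lungs, colon and skin numbered 34. Of these, 11 were higher, 1 (Il1rl1) lower and 22 not DEGs in VAT ST2- against spleen ST2+, with a median of 0.45. The list overlaps the tissue list. Among the 17 genes on both, 9 were higher and none lower (median 0.72), and among the 17 genes on the ST2 list alone, 2 were higher and 1 lower (median -0.11). Side by side, the comparisons gave the same 34 genes 25 DEGs higher in VAT ST2- than in spleen ST2- (4.58% of tested genes), and 11 higher in spleen ST2+ than in spleen ST2- (0.341%). Of 21 genes lower in ST2+ Tregs of the other tissues, 4 were lower and 2 higher in VAT ST2- than in spleen ST2+.

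Genes of Treg identity were divided. Of 13 tested, 2 were higher and 2 lower in VAT ST2- (2.72% of all tested genes were higher and 0.994% lower). With limma 2 were higher and 4 lower, and 1 was lower and none higher when the fold change was tested against 1.5. Il2ra, the IL-2 receptor chain CD25, was at 376, 208, 218, 255 and 283 CPM in VAT ST2- and at 484, 470, 465, 419 and 405 CPM in spleen ST2+, without overlap (log2 fold change -0.74, SE 0.16, adjusted p 0.0018). Gpr83, a receptor gene long known as a Treg marker, fell furthest, with 43.6, 0, 14.8, 0.557 and 6.11 CPM against 115 to 191 CPM (log2 fold change -3.33, SE 0.54, adjusted p 1.5e-05). Ctla4, the inhibitory receptor that strips CD80 and CD86 from other cells, rose, with means of 959 ± 186 and 490 ± 58.4 CPM (SD, n = 5 each). Lrrc32, encoding GARP, which docks latent TGF-β, rose by a log2 fold change of 1.42 (SE 0.38, adjusted p 0.018), and missed the threshold without the spleen ST2+ library of mouse 2 or 5 (adjusted p 0.057 and 0.071). Foxp3 (log2 fold change -0.11, 95% confidence interval -0.37 to 0.15) and Ikzf2, encoding Helios (0.09, -0.24 to 0.41), did not pass the test, and their intervals lay inside a 1.5-fold change.

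Of 19 transcription factors of tissue Tregs, 6 were higher and 1 lower (2.72% of all tested genes were higher and 0.994% lower). Their median log2 fold change was 0.81. Batf, needed for tissue Tregs, was the one lower, at 182, 216, 135, 205 and 152 CPM in VAT ST2- and 240, 315, 274, 280 and 282 CPM in spleen ST2+ (log2 fold change -0.65, SE 0.17, adjusted p 0.015). Without the VAT ST2- library of mouse 3 this call was lost (-0.57, adjusted p 0.064). Nr4a1, an orphan receptor induced by T cell receptor signalling, was higher, at 347, 629, 542, 531 and 462 CPM against 132, 108, 118, 30.4 and 18.3 CPM (log2 fold change 2.62, SE 0.38, adjusted p 8.7e-07). Bhlhe40 (log2 fold change 1.75), Nfil3 (1.56), Rbpj (1.37), which mediates Notch signals, Hif1a (0.80), the hypoxia factor, and Ikzf3 (0.63) were the others that rose. The Ikzf3 call was at the threshold and was lost in 8 of the 10 fits that left out 1 library (adjusted p 0.055 to 0.14). Rora was higher in all 5 mice without passing the threshold (log2 fold change 0.81, 95% confidence interval 0.24 to 1.38, adjusted p 0.094). It passed with limma (adjusted p 0.028) and in a fit of these 2 groups (0.037).

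**Figure D5:**
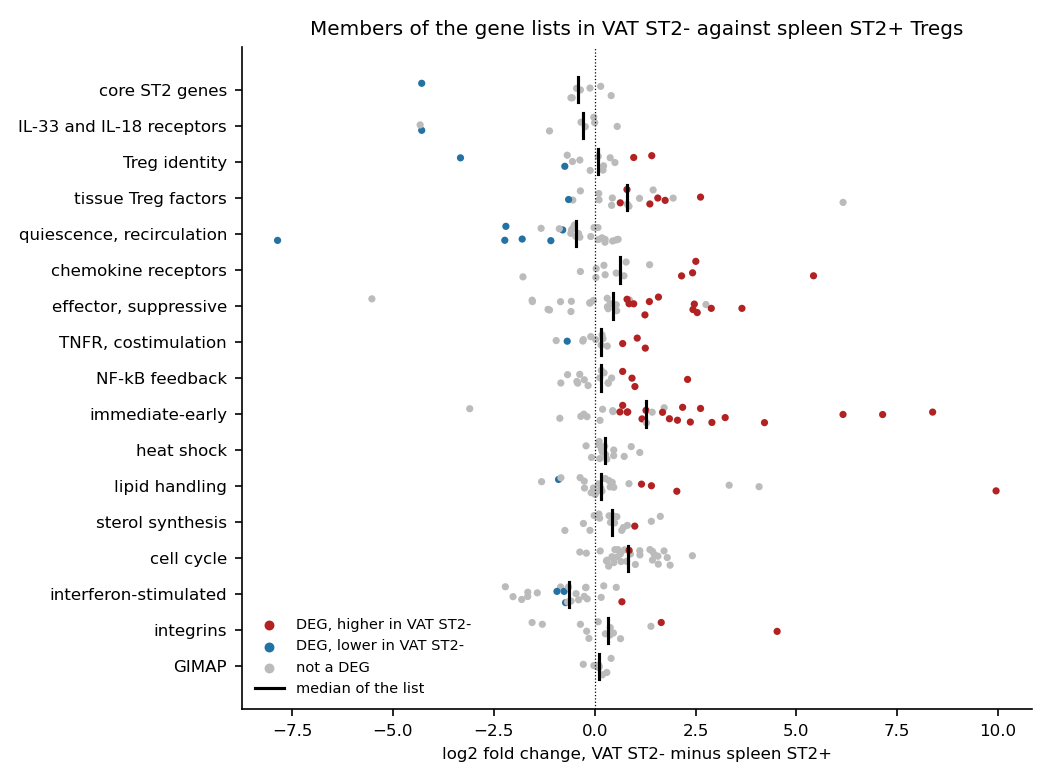
Log2 fold changes of VAT ST2- minus spleen ST2+ (x axis) for the tested members of 17 gene lists, with 1 point per gene and a black line at the median. DEGs higher in VAT ST2- (red) were most frequent among immediate-early genes, 18 of 30, and DEGs lower (blue) among quiescence and recirculation genes, 6 of 25. Dapl1 and Cd36, the outermost points, each had no read in 1 of the groups, so their position depends on the prior count of the fit.

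Genes of quiescence and recirculation did not move together. Of 25 tested, 6 were lower and none higher in VAT ST2-, with a median of -0.47 (0.994% of all tested genes were lower and 2.72% higher). Satb1, a chromatin organizer of thymocytes and naive T cells, was at 55.6, 9.56, 99.4, 20.1 and 50.9 CPM in VAT ST2- and at 249, 235, 243, 216 and 159 CPM in spleen ST2+, without overlap (log2 fold change -2.20, SE 0.40, adjusted p 0.00015). Id3, Il6ra and Txnip fell too, by 1.80, 1.09 and 0.79 on the log2 scale, and Il6ra missed the threshold without VAT ST2- mouse 2 or spleen ST2+ mouse 3 (adjusted p 0.053 and 0.069). Without the VAT ST2- libraries of mice 3 and 5 the number lower was 3. Dapl1 had no read in the 5 VAT ST2- libraries and 4.14 to 33.6 CPM in spleen ST2+, at least 48.6-fold lower when 3 counts over the VAT group are taken as the limit. By contrast, the lymph node homing receptor Ccr7 was at 406, 514, 358, 25.6 and 312 CPM in VAT ST2- and at 262, 234, 204, 166 and 247 CPM in spleen ST2+, higher in 4 of 5 mice (log2 fold change 0.54, 95% confidence interval -0.30 to 1.37). S1pr1, the exit receptor (0.26, -0.12 to 0.63), its regulator Klf2 (-0.01, -0.35 to 0.32) and Tcf7 (0.08, -0.54 to 0.71) did not pass the test, and the Klf2 interval lay inside 1.5-fold. In lung ST2- Tregs against spleen ST2+, 9 of the same 25 genes were higher (2.52% of tested genes) and 1 lower.

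Immediate-early genes, which are transcribed within minutes of a stimulus, made up the group with the largest share of DEGs among the lists. Of 30 tested, 18 were higher in VAT ST2- and none lower (2.72% of all tested genes were higher and 0.994% lower). The median log2 fold change was 1.28. The number lower was 2 with DESeq2 and in a fit of these 2 groups, and 1 with limma, with a filter of 1 CPM in 50% of libraries and with mouse as a block. Fosl2, an AP-1 subunit, was at 36.1, 264, 206, 264 and 112 CPM in VAT ST2- and at 0.376, 4.38, 4.75, 2.67 and 0.367 CPM in spleen ST2+ (log2 fold change 6.16, SE 0.49, adjusted p 1.3e-14). Atf3, a stress-induced factor, was at 10.3 to 191 CPM against 0 to 0.487 CPM, and Klf4 at 11.7 to 122 against 0 to 1.13 CPM. Nr4a2 and Nr4a3, relatives of Nr4a1, rose by log2 fold changes of 4.21 (SE 0.53) and 3.23 (SE 0.41). Fos itself overlapped, because spleen ST2+ libraries ran from 18.3 CPM in mouse 5 to 492 CPM in mouse 2, but it was higher in VAT ST2- in every mouse (log2 fold change 2.18, SE 0.51, adjusted p 0.0040). Jun, Myc, Cd69 and the EGR genes were among the 12 members that did not pass, and Egr2 ran the other way, with means of 10.1 ± 8.73 and 87.5 ± 57.4 CPM (SD, n = 5 each, log2 fold change -3.10, adjusted p 0.056, and 0.029 with DESeq2 and 0.027 in the fit of 2 groups). Without the VAT ST2- libraries of mice 3 and 5, 17 of the 30 were higher, and leaving out 1 library at a time gave 15 to 18. In lung ST2- Tregs, 14 of the 30 genes were higher than in spleen ST2+ and 3 lower (2.52% and 0.933% of tested genes). In VAT ST2- against blood ST2-, 23 were higher and none lower (6.43% and 3.34%). Tissue digestion is known to induce such genes, and it cannot be told apart from the tissue here. None of 15 heat shock genes was a DEG (median 0.25).

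Promoter stretches are shown for some of these genes because 18 of the 30 were higher. The 250 bases before the RefSeq start sites (GRCm38.p6) were searched on either strand for the letters TGACG, the core of a cAMP response element (TGACGTCA). They were found in 13 of the 17 immediate-early DEGs with a RefSeq promoter (76.5%). Of the 12 members that were not DEGs, 7 had such a promoter, and the letters were found in 1 of these 7 (14.3%). The match in the latter was in Egr2. TGACG was present in 29.7% of the 10360 tested genes with a promoter and in 37.4% of the 273 DEGs higher in VAT ST2-. The full letters TGACGTCA, which hold TGACG on both strands, were present in 2.97% of tested genes and in Btg2, Dusp1 and Ppp1r15a of the 17. Areg, described below, is not on the list and is shown for its TGACGTCA. Capitals mark the letters, and each sequence runs 5′ to 3′ on the strand of its gene, all before the start site.
Areg, chr5:91139528-91139555, + strand: ggctggtccgTGACGTCAcgggcggtgg
Btg2, chr1:134079304-134079331, - strand: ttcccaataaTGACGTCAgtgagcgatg
Dusp1, chr17:26508598-26508625, - strand: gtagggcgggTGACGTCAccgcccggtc
Fosb, chr7:19310091-19310115, - strand: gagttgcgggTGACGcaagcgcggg
Nr4a1, chr15:101266796-101266820, + strand: cctctccatgCGTCAcggagcgctt
Nr4a2, chr2:57124100-57124124, - strand: acggggccgcTGACGcgcttggccg
Nr4a3, chr4:48045148-48045172, + strand: gtggcataaaTGACGtgccgagaga
These are matches of letters and not measured binding sites. The genes shown rose by log2 fold changes of 2.89 (Areg), 1.27 (Btg2), 0.81 (Dusp1), 2.91 (Fosb), 2.62 (Nr4a1), 4.21 (Nr4a2) and 3.23 (Nr4a3), and the Dusp1 call was lost without VAT ST2- mouse 2 or 4 or spleen ST2+ mouse 1, 3 or 5 (adjusted p 0.063 to 0.11).

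NF-κB feedback genes gave 4 higher and none lower of 17, with a median of 0.17 (2.72% of all tested genes were higher and 0.994% lower). Tnfaip3 (chromosome 10, 19000910 to 19015657), encoding A20, which ends NF-κB signalling, had the smallest adjusted p of the comparison. It was at 1315, 2195, 1699, 2071 and 1979 CPM in VAT ST2- and at 303, 483, 350, 466 and 275 CPM in spleen ST2+ (log2 fold change 2.30, SE 0.17, adjusted p 4.4e-16). Lung ST2- Tregs held 2130 ± 247 CPM and blood ST2- Tregs 824 ± 154 CPM (SD, n = 5 each). Rel (log2 fold change 0.998), Nfkbid (0.93) and Nfkbiz (0.69) rose less, and Nfkbiz missed the threshold without VAT ST2- mouse 2 or spleen ST2+ mouse 5 (adjusted p 0.15 and 0.093).

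Effector and suppressive genes gave 11 higher and none lower of 30 (2.72% of all tested genes were higher and 0.994% lower). But 5 were lower with limma, 2 with DESeq2 and 1 in a fit of these 2 groups. Areg, encoding amphiregulin, a growth factor of tissue repair made by tissue Tregs, was at 128, 378, 228, 293 and 194 CPM in VAT ST2- and at 30.9, 42.4, 38.8, 29.4 and 23.1 CPM in spleen ST2+ (log2 fold change 2.89, SE 0.34, adjusted p 3.6e-09). Il10, the suppressive cytokine, was at 107, 129, 138, 70.8 and 218 CPM against 33.1, 31.2, 47.9, 45.4 and 63.4 CPM (log2 fold change 1.58, SE 0.36, adjusted p 0.0037). The Il10 call was lost without the VAT ST2- libraries of mice 3 and 5 (log2 fold change 1.21, adjusted p 0.11) and when the fold change was tested against 1.5 (adjusted p 0.063). Neither gene overlapped between the groups. Anxa1 (log2 fold change 3.65), the lamin gene Lmna (2.54), Gzmb (2.47), Lgals3 (2.44), Fgl2 (1.36), Anxa2 (1.25), S100a6 (0.85) and Lgals1 (0.80) rose as well, and the eleventh was Ctla4. The S100a6 call was at the threshold and was lost in 9 of the 10 fits that left out 1 library (adjusted p 0.066 to 0.17). Macrophages also express Lgals3 and Anxa1, and the macrophage sums above were likewise higher in VAT ST2- than in spleen ST2+. NK cells express Gzmb and Nkg7, and Nkg7 was higher in VAT ST2-, with 257, 439, 399.6, 489.9 and 447 CPM against 60.9 to 98.3 CPM in spleen ST2+. But Nkg7 was the single DEG of the 6 tested markers of CD8 T and NK cells. In VAT ST2- of mice 1, 3, 4 and 5, Ncr1 and Klrb1c were at 0 and Klrd1 at no more than 3.94 CPM. The part of macrophages and NK cells in these results was not tested.

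Among 14 chemokine receptor genes, 4 were higher and none lower (2.72% of all tested genes were higher and 0.994% lower). Ccr2, the receptor for CCL2, was at 189, 528, 576, 602 and 582 CPM in VAT ST2- and at 67.0, 98.4, 85.1, 172 and 134 CPM in spleen ST2+, with mouse 1 lowest in both groups (log2 fold change 2.15, SE 0.44, adjusted p 0.00086). Cxcr4 rose by a log2 fold change of 2.43 and Ccr3 by 2.51, and Ccr3 was at 21.6 and 28.7 CPM in mice 1 and 2 but at 118 to 189 CPM in mice 3 to 5. The Ccr3 call was lost without VAT ST2- mouse 4 or 5 or spleen ST2+ mouse 1, 2 or 5 (adjusted p 0.057 to 0.077). Ccr8 and Cxcr6 were higher in all 5 mice without overlap, but missed the threshold (adjusted p 0.16 and 0.063). Both passed it with limma (0.0042 and 0.00072) and in a fit of these 2 groups (0.031 and 0.0016), each of which gave 7 genes higher of the 14, and Cxcr6 also passed it with mouse as a block in the fit of all groups (adjusted p 0.040). In spleen ST2- Tregs Ccr2 averaged 19.96 CPM, so spleen ST2+ Tregs lay between them and VAT ST2-.

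Costimulatory genes gave 3 higher and 1 lower of 13 (2.72% of all tested genes were higher and 0.994% lower). Cd28, the main costimulatory receptor, was at 548, 1179, 864, 1038 and 940 CPM in VAT ST2- and at 288, 416, 379, 384 and 446 CPM in spleen ST2+ (log2 fold change 1.25, SE 0.13, adjusted p 1.8e-10). Icos and Cd40lg rose by 0.69 and 1.05 on the log2 scale. Tnfrsf25, the receptor of TL1A, was lower in all 5 mice (log2 fold change -0.68, SE 0.14, adjusted p 0.0011). Of 14 integrin genes, Itgav rose (log2 fold change 1.65, SE 0.30) and Itga1 was called higher with 1.77, 29.4, 136, 87.0 and 74.3 CPM against 0.367 to 5.88 CPM, so that mouse 1 stayed at spleen levels. The Itga1 call was lost without spleen ST2+ mouse 5 (adjusted p 0.051).

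Of 26 lipid genes, 4 were higher and 1 lower (2.72% of all tested genes were higher and 0.994% lower). Plin2, which coats lipid droplets, was at 83.6, 202, 225, 316 and 351 CPM in VAT ST2- and at 42.5, 53.1, 44.7, 80.6 and 66.0 CPM in spleen ST2+ (log2 fold change 2.04, SE 0.49, adjusted p 0.0067). Dgat1, the last enzyme of triglyceride synthesis, rose by 1.41 and Cpt1a, which admits fatty acids to mitochondria, by 1.16 on the log2 scale, while the cholesterol exporter gene Abcg1 fell by 0.89. Cd36, a fatty acid transporter, had no read in spleen ST2+ and was at 9.21, 0, 270, 8.92 and 19.9 CPM in VAT ST2-. Its call rested on mouse 3, the library with 586 CPM of endothelial markers and 202 CPM of Fabp4. Without this library the log2 fold change was 7.26 with adjusted p 0.12. Of 18 sterol synthesis genes, Stard4 was the single DEG (5.56%, higher). It was lost in 9 of the 10 fits that left out 1 library (adjusted p 0.050 to 0.16).

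Interferon-stimulated genes gave 3 lower and 1 higher (Ly6a) of 23 and a median log2 fold change of -0.65. Of all tested genes, 0.994% were lower and 2.72% higher. Irf9 and Gbp3 fell by 0.72 and 0.93 on the log2 scale. The Irf9 call was lost without VAT ST2- mouse 2, 4 or 5 or spleen ST2+ mouse 1, 2 or 4 (adjusted p 0.052 to 0.12), the Ly6a call without VAT ST2- mouse 2 or 3 or spleen ST2+ mouse 1 (0.064 to 0.071), and without VAT ST2- mice 3 and 5 none of the 23 was a DEG. Cell cycle genes were mostly unresolved. Of 30, 28 had a positive log2 fold change (median 0.82) but Hmgb2 was the single DEG (3.33%, near the share of all tested genes). There were 5 DEGs higher with limma and 2 in a fit of these 2 groups. The Hmgb2 call was lost without VAT ST2- mouse 2 or spleen ST2+ mouse 1, 3 or 5 (adjusted p 0.052 to 0.15). Mki67, encoding Ki-67, was at 121, 111, 94.98, 129 and 153 CPM in VAT ST2- and at 17.7, 64.3, 36.0, 27.8 and 29.7 CPM in spleen ST2+, without overlap, yet missed the threshold (log2 fold change 1.80, 95% confidence interval 0.56 to 3.03, adjusted p 0.085). It passed the threshold with limma (adjusted p 0.019) and in the fit of these 2 groups, without a block for mouse (0.0041) and with it (0.0087). None of the 8 GIMAP genes, which support lymphocyte survival, was a DEG, and 5 of their intervals lay inside a 1.5-fold change.

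Among DEGs whose libraries did not overlap, the 12 that ranked first by adjusted p on each side included several already described. Higher in VAT ST2- were Tnfaip3, Fosl2 and Cd28, and also Vps37b (log2 fold change 2.995, SE 0.25), an ESCRT subunit, Odc1 (1.70, SE 0.17), the entry enzyme of polyamine synthesis, P2ry10 (1.72, SE 0.17) and Gna13 (1.46, SE 0.15), a lipid receptor and a G protein subunit, and Hilpda (2.37, SE 0.24), an inhibitor of lipolysis. The others were Got1 (2.22, SE 0.23), the cytosolic aspartate aminotransferase, the kinase gene Sik1 (2.98, SE 0.31), the phosphatase gene Dusp10 (2.55, SE 0.27) and Cebpb (1.98, SE 0.21). Lower in VAT ST2- were Il1rl1, Gpr83, Satb1 and Txnip, and also AI467606 (-1.10, SE 0.14), Rcn1 (-2.28, SE 0.34), a calcium-binding protein of the endoplasmic reticulum, Dapp1 (-0.90, SE 0.15), an adaptor, and the cytokine gene Il16 (-0.66, SE 0.11). The others were the phosphatase gene Ppm1l (-5.30, SE 0.85), Trim59 (-0.96, SE 0.18), Ift80 (-1.58, SE 0.30), a subunit of ciliary transport, and Tmem173 (-0.59, SE 0.12), encoding STING, the receptor for cyclic dinucleotides. The fold changes of Il16 and Tmem173 lay near 1.5 and dropped under it without VAT ST2- mouse 5, and that of Tmem173 also without VAT ST2- mouse 4 or spleen ST2+ mouse 2 or 4 (log2 -0.58 to -0.55). Exons of Cebpb, Dusp1, Foxp3, Gata3, Hif1a, Il16, Irf9, Itga1, Klrb1c and Vps37b overlap exons of other protein-coding genes, and the cDNA kit does not mark the strand, so reads in these stretches cannot be assigned.

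In these sorted pools, more cells that express a gene and more RNA per cell cannot be told apart, and the p-values rest on the spread between libraries within a group, pooled over all 14 groups.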

How the data were processed

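RNA was sequenced from 70 sorted pools of 14 Treg populations of 5 male mice, 1 pool per population and mouse. The deposited table holds raw read counts per gene, which the authors made with STAR and HTSeq 0.4.1 on GRCm38 per the labels; the strand setting is not given in the sources used here. No values other than these counts were used. Kept were 67 libraries with more than 1000000 counts and 13179 protein-coding genes that reached 1 CPM in 10% of them. Groups came from the labels. Each comparison was tested with edgeR 4.0.16 (TMM normalization, quasi-likelihood test, all 14 groups, no mouse term) in R 4.3.3, with Benjamini-Hochberg adjustment over all tested genes. A DEG needed a 1.5-fold change or more at an adjusted p no higher than 0.05. CPM values given in the text use each library's counts over the tested genes, scaled by its TMM factor. The study used limma with voom and quality weights, tried here as an alternative with limma 3.58.1, as was DESeq2 1.42.0.

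The members and gene lists were chosen with earlier results of these data known. Named genes were members of those lists and, per direction, the 12 non-overlapping DEGs that ranked first by adjusted p, and further genes were named among the 45 spleen ST2 genes and the marker lists after their values were seen. Markers of erythroid cells, platelets, neutrophils and mast cells, mesothelium and pancreas gave no DEG, those of CD8 T and NK cells gave Nkg7 (with other NK cell genes in 1 VAT ST2- library, described above) and those of type 2 innate lymphoid cells gave Areg. The same mouse number marks the same animal. Deviations from the group means correlated at 0.0513 on average between libraries of 1 mouse (0.0162 to 0.125) and at -0.0128 between mice. Total counts of 1532998 to 2759926 limit the precision of low genes. RefSeq promoters were searched for exact letters. Some results are not reported here.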

Additional observations from a re-analysis of the deposited data

Results flagged for a closer look

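With 5 libraries a group, the gap between the highest or lowest library and its neighbour was set against the range. In 27 of 264 sets of 5 values (10.2%) this gap exceeded 0.71 of the range. About 1 in 20 sets of normally distributed values would pass this cutoff, but CPM values can be skewed. A set with reads in a single library always passes it, and marker sums share genes with single gene sets. The 10.2% is therefore a description and no measure of an excess over chance. Among VAT ST2- gene levels, mouse 1 stood low for Ccr2 (189 CPM), Lgals3 (133 CPM) and Dgat1 (150 CPM). Mouse 2, the pool of 93 cells, stood high for Dusp10 (592 CPM), Hmgb2 (84.7 CPM) and Dapp1 (275 CPM) and for the NK cell genes Klrd1 (44.4 CPM) and Klrb1c (17.1 CPM), had the fewest detected genes (11877) and the highest sum of platelet markers (17.1 CPM). Mouse 3 stood high for Cd36 (270 CPM), Ppm1l (2.95 CPM), Apoe (134 CPM), Jchain (868 CPM) and Fabp4 (202 CPM), and for the summed markers of adipocytes (238 CPM), B and plasma cells (2863 CPM), endothelium (586 CPM), erythroid cells (15.3 CPM) and neutrophils and mast cells (4.92 CPM). Mouse 4 stood high for Gata3 (240 CPM). In spleen ST2+, mouse 2 stood low for Klrg1 (378 CPM) and for the sum of markers of type 2 innate lymphoid cells, a list that holds Klrg1 (433 CPM), and high for Nr4a2 (35.6 CPM). Mouse 5 stood low for the markers of CD8 T and NK cells (110 CPM) and high for Klrd1 (1.83 CPM), and mouse 3 was the one with reads of Klrb1c (0.396 CPM).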

How the results depend on the processing

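Of 87 DEGs followed through 23 alternatives, 43 kept their call in each one that tested them. With an unchanged sign, 28 lost it in 1 to 3 and 16 in 4 or more. Jchain is among the 28 by 2 such losses, and it also lost its call in 3 alternatives where its sign was reversed. Cd36, Fabp4, Mreg, Siglech and Tyrobp were not tested with the filter of 1 CPM in 50% of libraries. Among these DEGs Jchain alone changed sign, with a log2 fold change of -2.73 to 5.38 when 1 library was left out, -2.88 without the VAT ST2- libraries of mice 3 and 5 and -0.39 with the replicate block in the fit of 2 groups. Siglech had no read left without mice 3 and 5 (log2 fold change 0). The 489 DEGs became 150 when the fold change was tested against 1.5, 807 with limma voom and quality weights, 295 without the VAT ST2- libraries of mice 3 and 5, and 366 to 637 when 1 library was left out. Testing against 1.5 gave 71 higher of the 265 genes higher in the other tissues, 2 lower of the 28 genes lower there and 6 higher of the 34 genes higher in their ST2+ Tregs. With limma, 13 of the 28 genes were lower in place of 8, and VAT ST2- against spleen ST2- gave 1236 DEGs. Spleen ST2+ against ST2- gave 221 DEGs with limma and 100 with DESeq2, of which 135 and 82 were higher in ST2+, and 54 and 56 of these were also higher in VAT ST2-. Of the 21 genes lower in ST2+ Tregs of the other tissues, the 4 that were lower became 7 with limma, 1 with the test against 1.5, the fit of 2 groups or without mice 3 and 5, 2 with all 70 libraries, and 1 to 5 when 1 library was left out. The cause was not tested. With mouse as a replicate block (paired by animal), the fit of all groups gave 519 DEGs. In the fit of 2 groups the block gave 322 DEGs, against 332 without it, and 2 lower of those 21 genes. In the blocked fit of all groups no call of a gene given values in the text changed other than those of Cxcr6 and Siglech. The fit of 2 groups without the block gained Rora (adjusted p 0.037), Ccr8, Cxcr6, Mki67 and Egr2 and lost Apoe, Fabp4, Jchain, Siglech, Ikzf3, Il6ra, Rel, Nfkbiz, Fos, Dusp1, Stard4, Hmgb2, Ly6a and Mreg. Against that fit, the block lost Egr2, Ccr8, Dapl1, Cd40lg and Abcg1 and regained Fabp4, Siglech, Rel, Fos, Dusp1 and Ly6a. Without the VAT ST2- libraries of mice 3 and 5, the calls of Batf, Id3, Fgl2, Cd40lg, Plin2, Abcg1 and Gbp3 were among those lost. Low counts limit the genes near 1 CPM.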
